A study of Mus musculus with 24 samples.

Results

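The 10 genes described here, Prom1, Cnmd, D17H6S56E-5, 4931406C07Rik, Ccl9, Anxa2, Map7d1, Caskin2, Dysf and Fhit, lie outside the known drug-metabolising targets of CAR and were picked because their liver mRNA moved when the nuclear receptor CAR was activated. They are 10 of 12393 genes measured, and 15 of 22690 probe sets report them. All 10 were among the 9167 genes tested. The values that chose them were those of TCPOBOP or phenobarbital in wild-type mice and of CITCO or phenobarbital in human CAR mice, each set against corn oil in the same genotype. In those 4 comparisons the members are described with no test.

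Liver RNA of 24 female mice on a mixed C57BL/6x129Sv background was hybridised to 1 Affymetrix array a mouse, with 2 mice in each of 12 groups. Human CAR mice lacked the mouse receptor and carried the human receptor as a transgene driven by the mouse albumin promoter, which is active in hepatocytes. Knockout mice lacked the mouse receptor, and wild-type mice had the mouse receptor alone. Each genotype received TCPOBOP (3 mg/kg, injected once), phenobarbital (100 mg/kg a day), CITCO (30 mg/kg a day) or the corn oil vehicle over 3 days, and livers were taken 6 h after the last injection. Values are log2 expression on the RMA scale, so a difference of 1 is a 2-fold change. A p-value here measures the spread between mice of 1 group, pooled over the 12 groups.

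CAR, encoded by Nr1i3, is a nuclear receptor of hepatocytes. TCPOBOP is a ligand of the mouse form, CITCO is a ligand that favours the human form, and phenobarbital activates both forms by releasing the receptor into the nucleus. There CAR pairs with the retinoid X receptor, binds paired copies of a short sequence and induces enzymes such as Cyp2b10, and in mice TCPOBOP also makes the liver grow.

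The genotype labels were borne out by Nr1i3, which lay at 5.03 to 5.60 on the 16 knockout and human CAR arrays and at 6.84 to 8.0 on the 8 wild-type arrays. Its single probe set is annotated to the mouse gene and does not check the human transgene. A pair of arrays stood apart from the other 22: the median correlation with the other arrays was 0.970 for human CAR phenobarbital replicate 1 and 0.980 for knockout phenobarbital replicate 2, against 0.981 to 0.991 for the rest. The dim limit, the 40th percentile of an array, lay between 4.93 and 5.08. Hepatocyte markers were bright on all arrays, with summed linear levels of 57569 to 66258 in human CAR livers, 61311 to 66564 in knockout livers and 53564 to 63607 in wild-type livers.

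The sequence just upstream of the start site was looked up for the 10 genes in RefSeq (build GRCm38.p6), as a description. A total of 9 members had 15 windows, each of 250 bases before and 50 bases after a start site. The 250 upstream bases are shown for Cnmd and 4931406C07Rik, which were past 2-fold with either receptor, and for Ccl9 and Dysf, which were past 2-fold with the mouse receptor, read 5′ to 3′ on the gene's strand. The stretches are chr14:79662184-79662433, strand - for Cnmd, chr9:15301608-15301857, strand - for 4931406C07Rik, chr11:83578637-83578886, strand - for Ccl9 and chr6:84008348-84008597, strand + for Dysf. Capitals mark AGGTCA or AGTTCA on either strand, the 2 forms searched of the short sequence that CAR and related receptors bind. Where a gene had more than 1 window, the window with the most matches is shown. It is 1 of 3 windows for 4931406C07Rik and 1 of 2 for Dysf.
Cnmd: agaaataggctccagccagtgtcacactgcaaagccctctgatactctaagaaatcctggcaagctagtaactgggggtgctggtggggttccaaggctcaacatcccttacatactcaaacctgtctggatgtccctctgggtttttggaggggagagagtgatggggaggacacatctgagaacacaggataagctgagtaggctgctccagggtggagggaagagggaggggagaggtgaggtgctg
4931406C07Rik: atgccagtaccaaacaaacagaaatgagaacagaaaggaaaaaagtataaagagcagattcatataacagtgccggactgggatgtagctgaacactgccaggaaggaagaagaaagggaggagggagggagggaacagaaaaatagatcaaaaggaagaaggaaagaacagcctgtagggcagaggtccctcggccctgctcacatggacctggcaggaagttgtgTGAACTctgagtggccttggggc
Ccl9: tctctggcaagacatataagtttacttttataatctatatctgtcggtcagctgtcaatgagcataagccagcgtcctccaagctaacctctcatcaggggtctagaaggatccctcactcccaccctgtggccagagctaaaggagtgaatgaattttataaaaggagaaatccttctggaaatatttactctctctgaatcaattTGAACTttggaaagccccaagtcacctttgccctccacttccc
Dysf: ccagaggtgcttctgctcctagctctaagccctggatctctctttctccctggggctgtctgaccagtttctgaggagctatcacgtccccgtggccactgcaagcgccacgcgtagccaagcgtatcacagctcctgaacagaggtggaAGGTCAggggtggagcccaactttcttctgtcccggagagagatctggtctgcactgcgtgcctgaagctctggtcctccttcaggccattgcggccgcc

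AGGTCA stood in 2 of the 15 member windows, 100 bases before a start of Dysf and 84 bases before a start of Fhit, and in 16.3% of all 32851 windows. AGTTCA stood in 2 member windows, those of 4931406C07Rik and Ccl9, and in 14% of all windows. No member window held the paired forms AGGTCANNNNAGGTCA or AGTTCANNNNAGTTCA, which stood in 0.0152% and 0.0122% of all windows. The Cnmd window held none of these letters. A match, or none, describes these windows alone.

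With the mouse receptor activated by TCPOBOP, 8 of the 10 genes were past 2-fold higher than on corn oil, where 1.27% of all tested genes were. The 8 were Prom1, Cnmd, D17H6S56E-5, 4931406C07Rik, Ccl9, Anxa2, Dysf and Fhit, and the other two were Caskin2 (a log2 change of 0.70) and Map7d1 (-0.60). Phenobarbital in wild-type livers put 4 genes past 2-fold higher (Cnmd, 4931406C07Rik, Ccl9 and Fhit; 0.622% of all genes) and Map7d1 past 2-fold lower (0.524% of all genes). CITCO in human CAR livers put 3 past 2-fold higher, Prom1, Cnmd and 4931406C07Rik, where 0.284% of all genes were, and 1 without CITCO replicate 1. Phenobarbital in human CAR livers put 0 of the 10 past 2-fold, against 1.65% of all genes in either direction, and 2 without phenobarbital replicate 1 or 1 without corn oil replicate 2. The comparisons within a genotype share their corn oil mice. Because these comparisons chose the members, nothing is read from the counts against their backgrounds. The genes differ among themselves, and they are taken below by the receptor and ligand that moved them.

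**Figure D1:**
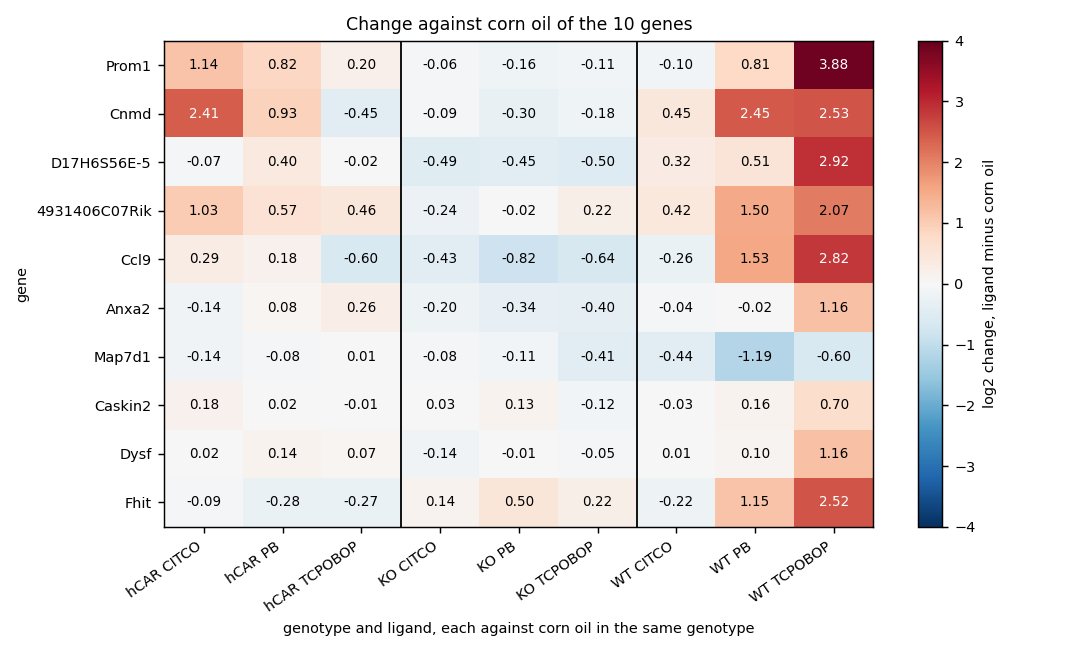
Heat map of the log2 change (ligand minus corn oil, colour scale and printed value) of each gene (rows) for each genotype and ligand (columns; hCAR, human CAR; KO, knockout; WT, wild type; PB, phenobarbital). Values in the wild-type TCPOBOP column are positive for 9 of the 10 genes, and those past 1 in the human CAR CITCO column are Prom1 (1.14), Cnmd (2.41) and 4931406C07Rik (1.03).

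Cnmd and 4931406C07Rik were high with either receptor. Cnmd encodes chondromodulin, a glycoprotein of cartilage that restrains the growth of blood vessels. In human CAR livers its level was 8.29 and 7.22 on CITCO, against 4.87 and 5.82 on corn oil. In wild-type livers it was 7.76 and 7.46 on TCPOBOP and 7.45 and 7.60 on phenobarbital, against 5.26 and 4.89 on corn oil. In each of these 3 groups both mice lay above both mice on corn oil. The log2 changes were 2.41 ± 0.42 for CITCO in human CAR livers and 2.53 ± 0.42 and 2.45 ± 0.42 for TCPOBOP and phenobarbital in wild-type livers (SE, n = 2 mice a group). The 3 group means, 7.76, 7.61 and 7.53, were the highest of the 12, and neighbours in that order differed by 0.315 and 0.17 of the pooled SD between mice.

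Phenobarbital in human CAR livers was uneven for Cnmd, with 5.57 and 6.98 against 4.87 and 5.82 on corn oil. The groups overlapped, and the log2 change of 0.93 ± 0.42 was 1.63 without replicate 1, the array that stood apart, and 0.22 without replicate 2. Cnmd was above the dim limit on 14 of 24 arrays, so its low values lie near the floor of the scale and its fold changes are compressed. TCPOBOP left human CAR livers at 5.04 and 4.76, and CITCO left wild-type livers at 5.15 and 5.90.

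4931406C07Rik is the mouse counterpart of human C11orf54, whose protein is an ester hydrolase in humans. Its level in human CAR livers was 10.14 and 9.85 on CITCO, against 8.84 and 9.09 on corn oil. In wild-type livers it was 11.12 and 11.10 on TCPOBOP and 10.35 and 10.74 on phenobarbital, against 9.19 and 8.90 on corn oil. No mouse on these ligands overlapped with the corn oil mice of its genotype. The log2 changes were 1.03 ± 0.17 for CITCO in human CAR livers, 2.07 ± 0.17 for TCPOBOP and 1.50 ± 0.17 for phenobarbital in wild-type livers. Phenobarbital in human CAR livers gave 9.37 and 9.71, a smaller change of 0.57 ± 0.17 with both mice above both corn oil mice (0.75 without replicate 1).

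Prom1 was also past 2-fold with either receptor. It encodes prominin-1 (CD133), a membrane glycoprotein of cell protrusions that is used as a marker of progenitor cells and of bile duct cells in liver. Wild-type livers had a level of 8.13 and 7.81 on TCPOBOP, against 3.95 and 4.24 on corn oil, a log2 change of 3.88 ± 0.27. Both of those corn oil values lie below the dim limit, so the change is compressed. In human CAR livers it was 5.31 and 4.89 on CITCO, against 3.90 and 4.03 on corn oil, a change of 1.14 ± 0.27. The wild-type TCPOBOP mean stood 9.45 pooled SDs above the human CAR CITCO mean, which came second.

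Phenobarbital gave Prom1 levels of 4.59 and 4.98 in human CAR livers (change 0.82 ± 0.27, or 1.01 without replicate 1, the array that stood apart) and 4.35 and 5.45 in wild-type livers (change 0.81 ± 0.27). In each of these groups both mice lay above both corn oil mice of the genotype, but the wild-type change was 0.26 without replicate 2 and 1.36 without replicate 1. Only 4 of the 24 arrays had Prom1 above the dim limit: both wild-type TCPOBOP arrays, wild-type phenobarbital replicate 2 and human CAR CITCO replicate 1. All other Prom1 values are dim signals, and differences between dim signals are compressed on this scale.

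Markers of bile duct and progenitor cells were looked at beside Prom1. Of 11 such markers on the array, Krt7, Epcam, Cftr, Cldn7, Cd24a, Muc1 and Pkhd1 were below the dim limit on all 24 arrays. Of the 4 tested, only Krt8, a keratin that hepatocytes also make, passed the test under TCPOBOP in wild-type livers (log2 change 1.42, SE 0.38, adjusted p = 0.0336 by limma). Krt18, the partner keratin of Krt8, changed by 0.75 without passing (adjusted p = 0.203), Krt19 by 0.01 (adjusted p = 0.983) and Sox9 by -0.09 (adjusted p = 0.863). Of the 4, 2 had an unadjusted p under 0.05. The summed linear level of the 11 markers was 2981 to 4380 in wild-type TCPOBOP livers, against 1669 to 1877 in wild-type corn oil livers. The brightest markers weigh most in such a sum, and Krt19 and Sox9, at 0.01 and -0.09, barely changed. The part of these markers in the Prom1 change was not tested. In bulk liver, more cells of a type and more RNA per cell cannot be told apart.

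Ccl9 and Fhit were past 2-fold higher with both activators of the mouse receptor and with neither activator of the human receptor. Ccl9 encodes a chemokine of rodents that attracts myeloid cells through the receptor Ccr1. Wild-type livers had Ccl9 at 10.91 and 10.97 on TCPOBOP and 9.41 and 9.89 on phenobarbital, against 8.03 and 8.21 on corn oil. The log2 changes were 2.82 ± 0.31 and 1.53 ± 0.31, with no overlap between the ligand and corn oil mice. Only CITCO in wild-type livers (7.85) had a lower Ccl9 group mean than wild-type corn oil (8.12). Ccl9 in human CAR livers was 9.06 and 9.23 on CITCO and 8.89 and 9.19 on phenobarbital, against 9.14 and 8.57 on corn oil. Those groups overlapped with corn oil, and the changes were 0.29 ± 0.31 and 0.18 ± 0.31.

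No tested relative of Ccl9 passed with it. Of 18 listed relatives (other chemokines and Ccr1), 17 were on the array and 9 were tested. By limma 0 of the 9 passed the threshold in the wild-type TCPOBOP comparison, where 6.14% of all genes passed, and 4 of the 9 had an unadjusted p under 0.05. The neighbouring gene Ccl6 changed by -0.23 (adjusted p = 0.787), and Ccl5, also near it, by 0.27 (adjusted p = 0.318). Of Kupffer cell and macrophage markers in wild-type livers, the summed level of 11 was 2717 to 3326 on TCPOBOP and 2162 to 2406 on phenobarbital, against 2875 to 3871 on corn oil. By count, 0 of the 11 passed the limma test under TCPOBOP, with 0 at an unadjusted p under 0.05.

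Fhit encodes a hydrolase of diadenosine triphosphate and is known as a tumour suppressor at a fragile site. Its level in wild-type livers was 8.05 on both TCPOBOP arrays and 6.53 and 6.84 on phenobarbital, against 5.49 and 5.58 on corn oil. The log2 changes were 2.52 ± 0.17 and 1.15 ± 0.17, and no ligand mouse overlapped with corn oil. Fhit in human CAR livers was 5.93 and 5.28 on CITCO and 5.51 and 5.32 on phenobarbital, against 5.78 and 5.60 on corn oil. The CITCO mice lay on either side of the corn oil mice (change -0.09 ± 0.17), and both phenobarbital mice lay below them (-0.28 ± 0.17). Of 6 relatives of the histidine triad family, Hint2 fell in wild-type TCPOBOP livers (-0.41, adjusted p = 0.0487 by limma), and the other five did not pass the test.

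D17H6S56E-5, Anxa2, Dysf and Caskin2 had their highest group mean under TCPOBOP in wild-type livers, where all but Caskin2 were past 2-fold. None of the 4 was past 2-fold in the other activating comparisons. D17H6S56E-5 is a protein-coding gene in RefSeq with no role given here. The level reached 8.45 and 8.28 on TCPOBOP in wild-type livers, against 5.32 and 5.57 on corn oil, a log2 change of 2.92 ± 0.16. Phenobarbital in wild-type livers gave 5.83 and 6.07, both above the corn oil mice but with a change of only 0.51 ± 0.16. Wild-type corn oil had the lowest group mean of all (5.44). The wild-type phenobarbital mean of 5.95 was near that of human CAR livers on corn oil (5.91). In human CAR livers CITCO gave 5.86 and 5.80, against 5.96 and 5.86 on corn oil (change -0.07 ± 0.16).

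Phenobarbital in human CAR livers put D17H6S56E-5 at 6.57 and 6.05, a change of 0.40 ± 0.16 that was 0.14 without replicate 1. That array is the human CAR array that stood apart. The summed neutrophil markers of its group ran from 478 to 1576, against 434 to 601 in human CAR corn oil livers. Which of the 2 mice had the higher sum is not given here. The part of these markers in the change was not tested. The nearest tested gene on either side of D17H6S56E-5 passed the threshold in wild-type TCPOBOP livers: Vars, which encodes a valyl-tRNA synthetase (0.63, adjusted p = 0.0026 by limma), and Hspa1b, a heat shock protein gene with 3 genes between (1.34, adjusted p = 0.00143). Of the 20 nearest tested neighbours of the 10 members these were the 2 that passed in those livers.

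Anxa2 encodes a calcium-dependent annexin that binds membrane phospholipids, often joined to S100a10. Its level in wild-type livers was 7.53 and 8.11 on TCPOBOP, against 6.64 and 6.68 on corn oil, a change of 1.16 ± 0.19 that was 0.87 without replicate 2 and 1.45 without replicate 1. Phenobarbital left wild-type livers at 6.65 and 6.63. In human CAR livers the level was 6.34 and 6.83 on CITCO and 6.66 and 6.95 on phenobarbital, against 6.85 and 6.60 on corn oil, and all these groups overlapped. Of 8 tested relatives only Anxa1 rose in wild-type TCPOBOP livers (0.69, adjusted p = 0.0296 by limma), and S100a10 changed by 0.97 without passing (adjusted p = 0.0764). The sum of bile duct and progenitor markers given with Prom1 was also higher in those livers. Of those markers only Krt8, which hepatocytes also make, passed the test there, and Krt18, Krt19 and Sox9 did not. The part of that sum in the Anxa2 change was not tested.

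Dysf encodes dysferlin, a membrane protein that takes part in resealing muscle membranes. Dysf was at 6.09 and 6.37 on TCPOBOP in wild-type livers, against 5.10 and 5.03 on corn oil, a change of 1.16 ± 0.11. The other 22 arrays all lay between 4.91 and 5.27, close to the dim limit. Caskin2 is a scaffold relative of the CASK-interacting protein Caskin1. Caskin2 was at 7.11 and 7.13 on TCPOBOP in wild-type livers, against 6.38 and 6.46 on corn oil, a change of 0.70 ± 0.10, the smallest of the 9 rises. No tested relative of Dysf (2) or Caskin2 (1) passed in those livers by limma, and 1 relative of Dysf had an unadjusted p under 0.05.

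Map7d1, which encodes a microtubule-associated protein of the MAP7 family, ran the other way. Its level in wild-type livers was 6.15 and 6.26 on phenobarbital and 6.79 and 6.80 on TCPOBOP, against 7.35 and 7.43 on corn oil. Both ligand groups lay below corn oil without overlap, with log2 changes of -1.19 ± 0.17 and -0.60 ± 0.17. Wild-type corn oil was the highest of its 12 groups. CITCO in human CAR livers gave 6.75 and 6.74 and phenobarbital 6.95 and 6.66, against 7.04 and 6.72 on corn oil, with changes of -0.14 ± 0.17 and -0.08 ± 0.17.

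**Figure D2:**
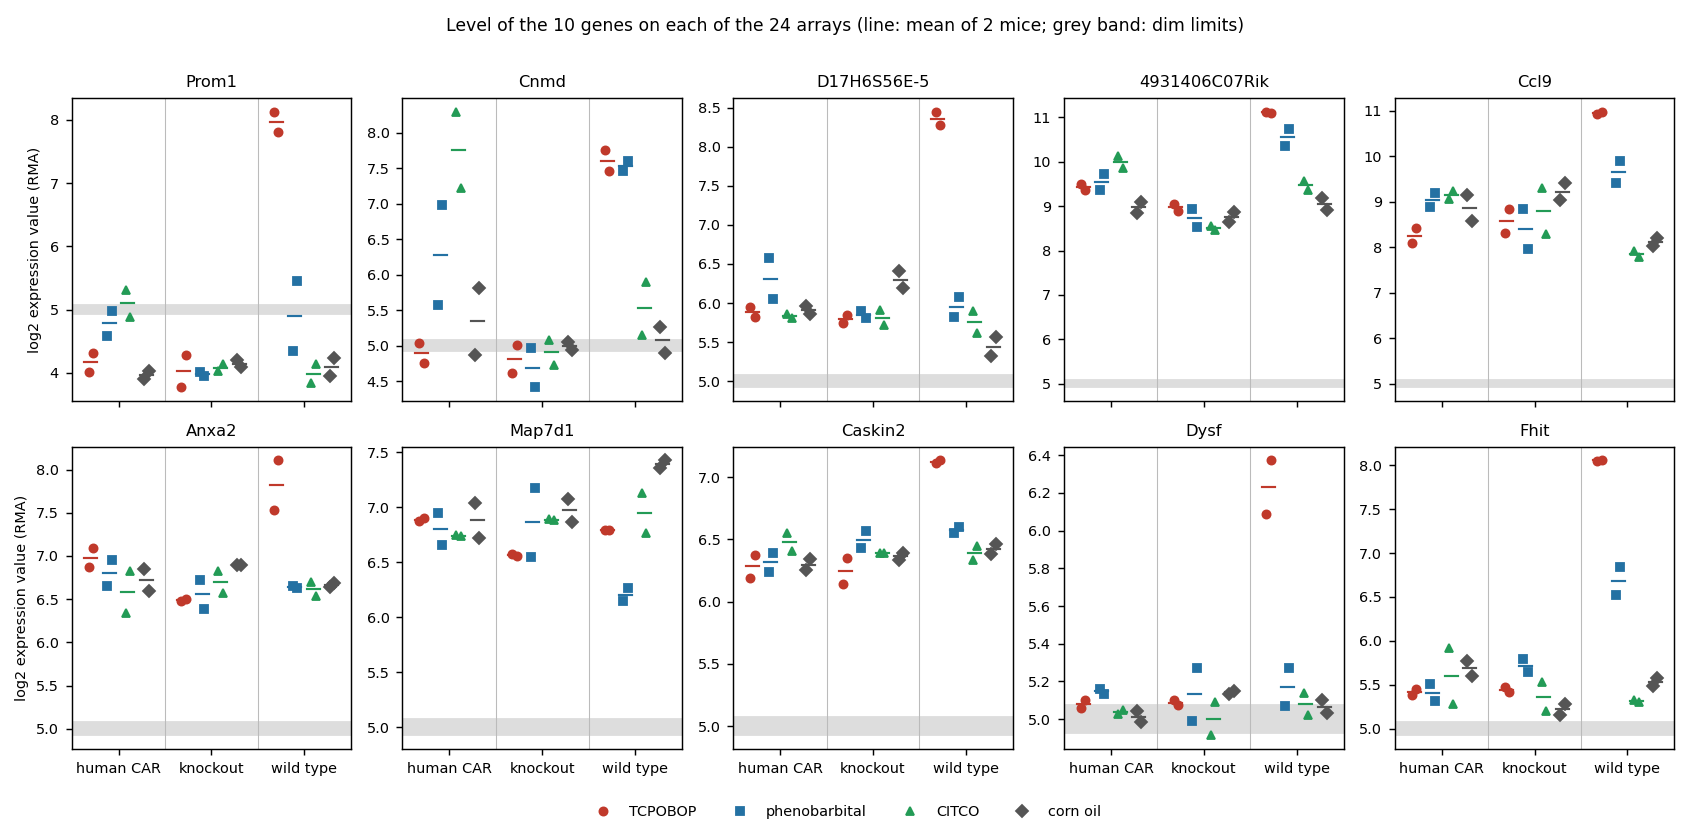
Level of each gene (log2 expression, RMA scale) on each of the 24 arrays by genotype, with ligands and corn oil as coloured symbols, the mean of 2 mice as a line and the range of the arrays' dim limits as a grey band. Prom1 in wild-type TCPOBOP livers sits at 8.13 and 7.81, far above its other groups, while the Cnmd values of human CAR CITCO livers (8.29 and 7.22) overlap with those of wild-type TCPOBOP livers (7.76 and 7.46).

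The ligand comparisons in knockout livers, which lack CAR, did not choose the members. TCPOBOP against corn oil in knockout livers called 0 of 10 genes by limma (3 at an unadjusted p under 0.05, smallest adjusted p = 0.291), where 0.0764% of all genes were called. Phenobarbital called 0 of 10 (3 at an unadjusted p under 0.05, smallest adjusted p = 0.126), where 0.731% were called, and CITCO called 0 of 10 (1 at an unadjusted p under 0.05, smallest adjusted p = 0.340), where 0.0327% were called. The changes lay between -0.82 and 0.50. Over all genes the shares at an unadjusted p under 0.05 were 11.4% on TCPOBOP, 21.3% on phenobarbital and 9.4% on CITCO.

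The TCPOBOP changes in knockout livers can be set beside those in wild-type livers. For Prom1 the TCPOBOP change in knockout livers was -0.11 (95% interval -0.68 to 0.46), against 3.88 in wild-type livers. For Cnmd it was -0.18 (-1.06 to 0.70), against 2.53 in wild-type livers, and for Fhit 0.22 (-0.13 to 0.58), against 2.52. For 4931406C07Rik it was 0.22 (-0.14 to 0.58), against 2.07 in wild-type livers, and for Dysf -0.05 (-0.30 to 0.19), against 1.16. For each of these 5 genes the wild-type change lay above the upper bound in knockout livers. Prom1 was below the dim limit on all knockout arrays and Cnmd on both knockout TCPOBOP arrays, so their intervals rest on dim, compressed values and bound little. Caskin2 gave -0.12 (-0.33 to 0.10), against 0.70 in wild-type livers, and Anxa2 -0.40 (-0.80 to -0.01), against 1.16. Map7d1 was 6.57 and 6.56 on TCPOBOP in knockout livers, against 7.07 and 6.87 on corn oil, with both TCPOBOP mice below both corn oil mice. Its knockout change of -0.41 (-0.77 to -0.05, adjusted p = 0.392 by limma) did not pass, and the wild-type change of -0.60 lies inside that interval. The wild-type value belongs to the comparison that chose the genes, so these differences carry no test.

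Phenobarbital in knockout livers left Cnmd at 4.96 and 4.42, against 5.05 and 4.93 on corn oil (change -0.30, 95% interval -1.18 to 0.58). 4931406C07Rik was at 8.93 and 8.54 on phenobarbital, against 8.64 and 8.87 on corn oil (-0.02, -0.38 to 0.34). Both mice lay above both corn oil mice for Fhit and Caskin2. Fhit was at 5.80 and 5.64 on phenobarbital, against 5.16 and 5.28 on corn oil (0.50, 0.14 to 0.85, adjusted p = 0.126 by limma), and Caskin2 changed by 0.13 (-0.08 to 0.35, adjusted p = 0.445). Neither change passed the threshold. Knockout phenobarbital replicate 2 is the other array that stood apart. Without it the change was -0.03 for Cnmd, 0.06 for Caskin2 and 0.18 for 4931406C07Rik, and Map7d1 changed by -0.42 without it and by -0.11 with it.

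Ccl9 and D17H6S56E-5 had negative changes in knockout livers on all 3 ligands. Ccl9 was 8.30 and 8.85 on TCPOBOP, 8.83 and 7.97 on phenobarbital and 9.29 and 8.28 on CITCO, against 9.03 and 9.40 on corn oil. Its phenobarbital change of -0.82 (95% interval -1.48 to -0.15) had an adjusted p of 0.162 by limma, and without knockout phenobarbital replicate 1 it was -1.25 with an adjusted p of 0.0349. Without replicate 2, the array that stood apart, it was -0.39 with an adjusted p of 0.743. D17H6S56E-5 was 5.75 and 5.85 on TCPOBOP, 5.90 and 5.81 on phenobarbital and 5.91 and 5.72 on CITCO, against 6.41 and 6.19 on corn oil. All 6 ligand mice lay below both corn oil mice, and the changes of -0.50, -0.45 and -0.49 had adjusted p of 0.291, 0.135 and 0.340 by limma. The 3 comparisons share the same 2 corn oil mice.

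Kupffer cell and macrophage markers were lower in the same livers. Their summed level was 1655 to 2627 on TCPOBOP, 1302 to 2345 on phenobarbital and 2281 to 2459 on CITCO, against 3589 to 4268 in knockout corn oil livers. Of the 11 markers, 1 fell on TCPOBOP, 4 fell on phenobarbital and 0 on CITCO by limma, with 11 at an unadjusted p under 0.05 on CITCO. Their median log2 changes were -0.96, -1.21 and -0.78. The part of these cells in the Ccl9 and D17H6S56E-5 values was not tested.

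**Figure D3:**
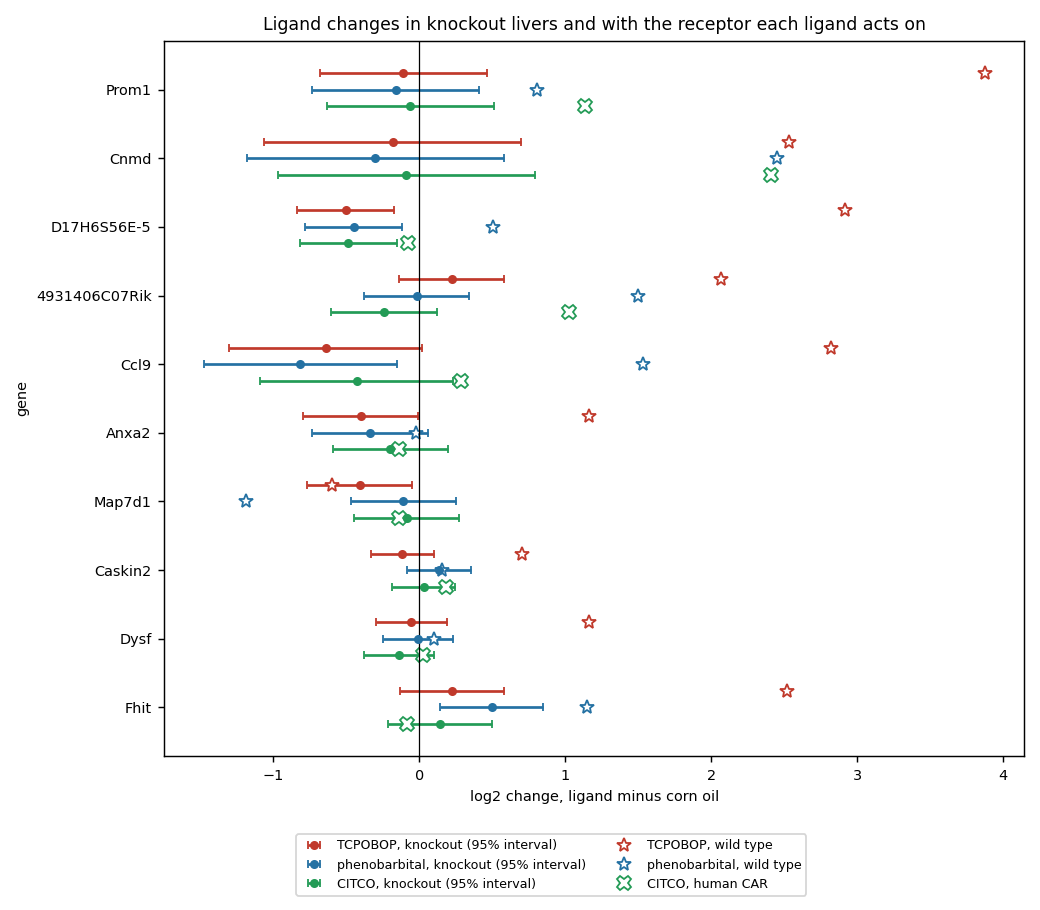
Log2 change against corn oil of each gene in knockout livers (filled circles with 95% intervals, one for each ligand) beside the change of TCPOBOP and phenobarbital in wild-type livers (open stars) and of CITCO in human CAR livers (open crosses). The knockout points lie between -0.82 and 0.50, and the wild-type TCPOBOP stars of all genes but Map7d1 lie to the right of their knockout intervals.

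Ligands given to the receptor of the other species also called 0 of the 10 genes by limma. CITCO in wild-type livers had 2 genes at an unadjusted p under 0.05 (smallest adjusted p = 0.622), where 0.0327% of all genes were called and 7.28% had such an unadjusted p. TCPOBOP in human CAR livers had 1 (smallest adjusted p = 0.656), where 0% were called and 6.65% had one. 4931406C07Rik was the one gene at such an unadjusted p in both: 0.42 (95% interval 0.06 to 0.78, adjusted p = 0.635) on CITCO in wild-type livers and 0.46 (0.09 to 0.82, adjusted p = 0.656) on TCPOBOP in human CAR livers. Its levels were 9.56 and 9.37 on CITCO in wild-type livers, against 9.19 and 8.90 on corn oil, and 9.50 and 9.35 on TCPOBOP in human CAR livers, against 8.84 and 9.09 on corn oil. Both pairs lay above their corn oil mice. Map7d1 on CITCO in wild-type livers was 7.13 and 6.77, below the corn oil mice, with a change of -0.44 (adjusted p = 0.622). Among known targets of CAR, Cyp2b10 changed by 3.23 and Cyp2c55 by 1.33 on CITCO in wild-type livers. There Gstm3 changed by 0.43, Ces2a by 0.17 and Sult1e1 by -0.17. These values are given without a test, and CITCO cannot be taken as inactive in wild-type livers.

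The differences of these effects from the effect without CAR were tested as well. CITCO in knockout minus CITCO in wild-type livers called 0 of 10 by limma (2 at an unadjusted p under 0.05, smallest adjusted p = 0.600), where 0.0218% of all genes were called and 5.64% had such an unadjusted p. TCPOBOP in human CAR minus TCPOBOP in knockout livers called 0 of 10 (2 at an unadjusted p under 0.05, smallest adjusted p = 0.918), where 0% were called and 5.03% had one.

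On corn oil the genotypes gave 0 calls by limma among the members tested, which leaves out D17H6S56E-5 in knockout against wild type. Knockout against wild type had 2 of 9 tested genes at an unadjusted p under 0.05 (smallest adjusted p = 0.319), where 0.229% of all genes were called and 6.57% had such a p. Human CAR against wild type had 3 of 10 (smallest adjusted p = 0.413; 0.0545% of all genes called, 7.73% at such a p), and human CAR against knockout had 2 of 10 (smallest adjusted p = 0.555; 0.12% called, 6.46% at such a p). The largest tested difference was Ccl9, at 9.03 and 9.40 in knockout livers, against 8.03 and 8.21 in wild-type livers (1.10, 95% interval 0.43 to 1.76, adjusted p = 0.319). Human CAR livers, at 9.14 and 8.57 on corn oil, overlapped with knockout livers.

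D17H6S56E-5 on corn oil was 6.41 and 6.19 in knockout livers, against 5.32 and 5.57 in wild-type livers. Its difference of 0.86 ± 0.16 passed the limma threshold and is among the 12 largest rises of that comparison over all genes. For that reason it was not counted among the tests above and is given as a description. Map7d1 was at 7.04 and 6.72 in human CAR livers and 7.07 and 6.87 in knockout livers, against 7.35 and 7.43 in wild-type livers. Its differences from wild type were -0.51 (adjusted p = 0.413) and -0.42 (adjusted p = 0.661), neither of which passed. Kupffer cell markers on corn oil summed to 2048 to 2671 in human CAR livers and 3589 to 4268 in knockout livers, against 2875 to 3871 in wild-type livers.

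The known drug-metabolising targets of CAR were counted in the same comparisons. Of 30 listed, 24 were measured, and 17 rose and 0 fell on TCPOBOP in wild-type livers (median log2 change 1.47, against 0.01 over all genes, of which 3.34% rose), with Cyp2b10 at 7.42. On phenobarbital in wild-type livers 15 rose (median 1.46; 0.895% of all genes), and on CITCO and phenobarbital in human CAR livers 6 and 4 rose (medians 0.41 and 0.36; 0.0873% and 0.109% of all genes). Human CAR changes are set against corn oil livers in which Cyp2b10 was already high. There it was 3.58 above wild-type and 3.41 above knockout corn oil livers. Cyp2c55 differed by -0.45 and 0.84, Gstm3 by 0.32 and 0.79, Ces2a by 0.03 and 0.36 and Sult1e1 by -0.26 and 0.06. In knockout livers 1 rose on TCPOBOP, 1 on phenobarbital and 0 on CITCO by limma, with 4 at an unadjusted p under 0.05 on CITCO. The medians of the 10 genes were 2.29 on TCPOBOP and 0.66 on phenobarbital in wild-type livers and 0.10 on CITCO and 0.16 on phenobarbital in human CAR livers. The 10 genes were chosen from these comparisons, so nothing is read from their medians against those of the listed targets.

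For each member the genes with the most similar group means were looked up. The closest over the 12 group means, by Pearson correlation across groups that share arrays with the member, were Gstm3, Cyp2c55 and Ces2a for 4931406C07Rik (r = 0.968 to 0.957). For Cnmd they were Ggcx, Cyp2b10 and Cyp2c55 (0.930 to 0.910). Cyp2c55, a cytochrome P450, was thus among the closest for both. For Dysf they were Pbk, Mical1 and Pnliprp1 (0.997 to 0.991), and for D17H6S56E-5 Pbk, Hmmr and Ccna2 (0.970 to 0.969). Pbk, which encodes a mitotic kinase, was among the closest for both. For Fhit they were Meig1, Lratd1 and Ybx3 (0.977 to 0.969), and for Caskin2 Meig1, Slc50a1 and Sult1e1 (0.963 to 0.942). Meig1 was among the closest for both. For Prom1 they were Mcm5, Ppp4r1 and Pgk1 (0.959 to 0.958), and for Anxa2 Tram1, Dtymk and Ssr3 (0.958 to 0.948). For Ccl9 they were Nhp2, Ssr4 and Ckap5 (0.941 to 0.924), and for Map7d1 Stx3, Copb2 and Tmed9 (0.894 to 0.836). These are descriptions over 12 points, chosen from 9167 genes. For Prom1, D17H6S56E-5, Anxa2, Caskin2, Dysf and Fhit the wild-type TCPOBOP mean stood 4.18 to 12.6 pooled SDs above the next group mean. That group, which was used to choose the members, weighs most in their r, so nothing is read from shared close genes.

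A total of 4 members had more than 1 probe set. For 4931406C07Rik the second probe set gave 2.25 and 1.59 on TCPOBOP and phenobarbital in wild-type livers and 1.22 on CITCO in human CAR livers, against 2.07, 1.50 and 1.03 for the first. For Ccl9 it gave 2.68 and 1.31 on TCPOBOP and phenobarbital in wild-type livers, against 2.82 and 1.53. For D17H6S56E-5 the second probe set was above the dim limit on 3 arrays and gave 3.83 on TCPOBOP in wild-type livers, against 2.92 for the first. The direction was shared in these 3 genes. The pair of further Anxa2 probe sets was below the dim limit on all 24 arrays and stayed within 2.56 to 2.84 and 3.05 to 3.54. They gave 0.0 ± 0.09 and 0.29 ± 0.11 (SE) on TCPOBOP in wild-type livers, against 1.16 for the first. Each of the other 6 members has 1 probe set.

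**Figure D4:**
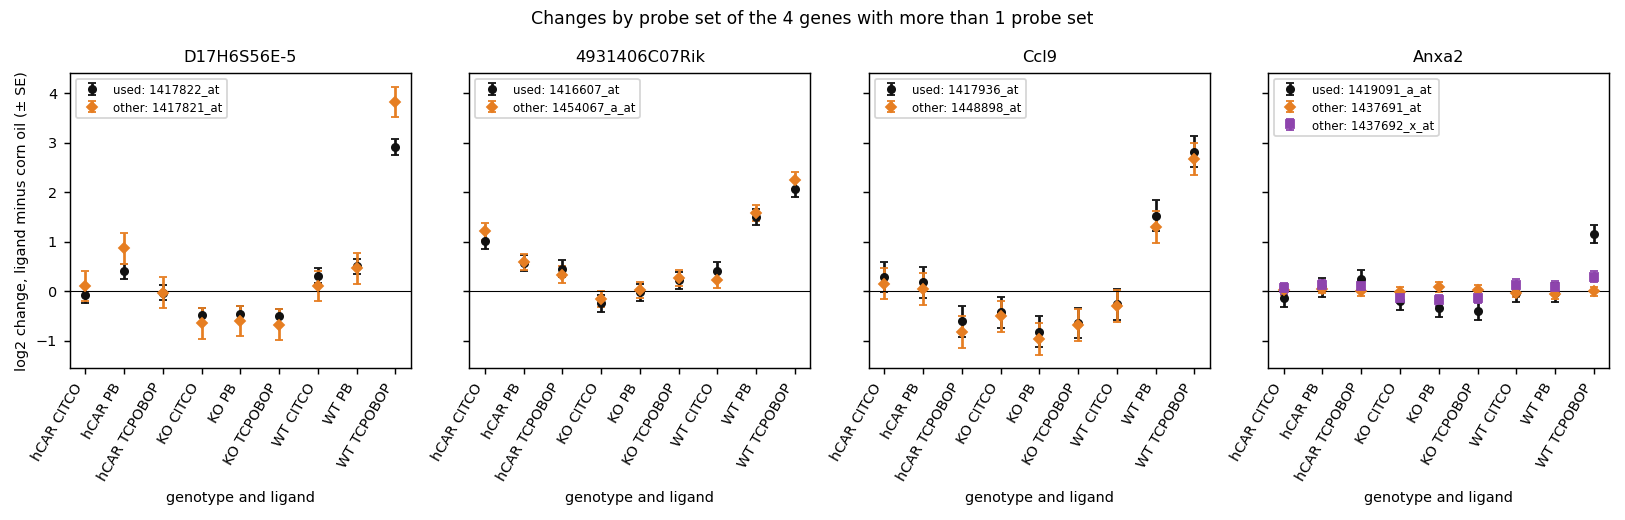
Log2 change against corn oil (points, with SE bars) by probe set for the 4 genes with more than 1 probe set, over the 9 combinations of genotype and ligand. The probe sets of 4931406C07Rik and Ccl9 lie close together, the second D17H6S56E-5 probe set is higher on TCPOBOP in wild-type livers (3.83), and the Anxa2 probe sets differ there (1.16 for the first, 0.0 and 0.29 for the dim pair).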

How the data were processed

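Liver RNA of 24 mice was measured on 1 Affymetrix array each. The authors deposited log2 expression values, made with RMA in R 2.15.0 per the submitters' processing notes. Build and annotation: not given in the sources used here. No depth exists for arrays, and 2 mice a group limit the precision. Probe sets were named through GEO's platform annotation: 20380 had 1 gene symbol, 691 several, 1555 were unlisted and 64 were controls. The probe set with the highest mean stood for a gene, and genes above the 40th percentile on at least 2 arrays were tested. With limma 3.58.1 (R 4.3.3) 12 group means were fitted (12 residual degrees of freedom), with Benjamini-Hochberg adjustment over 9167 genes and a threshold of 0.05. The script recovered large known changes in simulated arrays of equal quality, which does not cover smaller changes or arrays that stand apart. The 10 members and all lists were chosen with earlier results of these data known. A member's change has no p in the 4 comparisons that chose it or in differences holding one of them. It also has none, and is not counted as called, where it was among the 12 largest rises or 8 largest falls past the threshold. These wider limits were used in all comparisons. For each member the 3 genes closest in correlation are named, and up to 4 genes of a list. Alternatives covered normalisation, the dim filter, probe sets, the variance prior, array weights, the replicate block, the arrays fitted and leaving out arrays. Promoter windows were searched in Python 3.11.15. Promoter windows and neighbouring genes come from RefSeq tables of GRCm38.p6.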

Additional observations from a re-analysis of the deposited data

Results flagged for a closer look

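In 12 cases both mice of 1 genotype on a ligand lay beyond both its corn oil mice in one direction, and both mice of another genotype lay beyond theirs in the opposite direction. These differences of log2 changes were not tested, and only differences without a test were looked at in this way. For Prom1 the phenobarbital change differed by -0.97 (knockout minus wild type) and 0.98 (human CAR minus knockout). For D17H6S56E-5 the TCPOBOP change differed by -3.42 and the phenobarbital change by -0.95 (knockout minus wild type), and the phenobarbital change by 0.85 (human CAR minus knockout). For Ccl9 the knockout minus wild-type differences were -3.46 on TCPOBOP and -2.35 on phenobarbital. On TCPOBOP they were -1.56 for Anxa2 and -1.22 for Dysf. For 4931406C07Rik the CITCO change differed by 1.27 (human CAR minus knockout). For Fhit the phenobarbital change differed by -0.77 (human CAR minus knockout) and -1.42 (human CAR minus wild type). All 12 hold a comparison that chose the genes. The opposite side could be small: the knockout change was -0.05 for Dysf on TCPOBOP. For Prom1 on phenobarbital it was -0.16 (95% interval -0.73 to 0.41), between values that were all below the dim limit. None of the knockout changes passed the limma threshold in the main fit.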

How the results depend on the processing

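The 4 counts of members past 2-fold and the 8 counts of members called were recomputed under 10 other settings and with each of the 24 arrays left out. Under the other settings 3 counts moved beyond a set tolerance, and smaller shifts in the counts past 2-fold are not listed. Without the 2 arrays that stood apart, 2 members were past 2-fold on phenobarbital in human CAR livers (0 with them). With array weights 1 member was called on TCPOBOP and 1 on CITCO in knockout livers by limma. Both times it was D17H6S56E-5 (-0.50, adjusted p = 0.0463, and -0.49, adjusted p = 0.0463, by limma). With the mean of probe sets, Anxa2, whose further probe sets are dim, did not pass the dim filter. It was not fitted there and left the count on TCPOBOP in wild-type livers. With arrays left out, the members past 2-fold ranged from 7 to 8 on TCPOBOP and 4 to 6 on phenobarbital in wild-type livers, and from 1 to 3 on CITCO (1 without human CAR CITCO replicate 1) and 0 to 2 on phenobarbital in human CAR livers (2 without phenobarbital replicate 1, 1 without corn oil replicate 2). The members called on phenobarbital in knockout livers ranged from 0 to 1, the call being Ccl9 without knockout phenobarbital replicate 1. The causes were not tested. No change past a threshold turned its sign. The replicate numbers did not pair the mice: over 66 pairs of groups the correlation of deviations ran from -0.449 to 0.424, with 17 over 0.1. With the replicate block the members past 2-fold were 8 and 5 in wild-type livers on TCPOBOP and phenobarbital and 3 and 0 in human CAR livers on CITCO and phenobarbital, and no count of members changed. Counts over all genes moved far more: with array weights 207 genes were called on TCPOBOP and 270 on CITCO in knockout livers, against 7 and 3 with equal weights. On phenobarbital in knockout livers 933 were called without replicate 1 and 0 without replicate 2, against 67 with both. On phenobarbital in human CAR livers 0 were called without replicate 1 and 1311 without replicate 2, against 61 with both. The counts of lists were not recomputed.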
